A study of Drosophila melanogaster with 3 samples.

Results

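The genes of the cytosolic ribosomal proteins are those whose products build the large and the small subunit of the ribosome outside mitochondria. Their members were taken as the protein-coding genes whose symbol begins with RpL, RpS or RpLP followed by a digit, and 92 of the 13968 protein-coding genes met this rule, 54 of the large and 38 of the small subunit. Ribosomal protein genes with other symbols are not among the members. Pipsqueak binding at them was read from chromatin immunoprecipitation followed by sequencing (ChIP-seq) with an antibody against GFP. The chromatin came from whole wandering larvae of the third instar, males and females pooled, of a transgenic Drosophila melanogaster line that stably expresses Pipsqueak with eGFP at its C terminus. Which promoter drives the tagged gene, and the state of the untagged psq gene, were not stated in the labels. All 3 samples were biological replicates of this single group, so no comparison between conditions exists, and whole animals do not show in which tissue a gene was bound. The files held the authors' optimal list of 9459 peaks and, from the pooled replicates and from each replicate, lists of 30000 entries that include background. They gave no read counts, so depth is unknown for all samples, and the control was not analysed here. Signal at these genes in a mock or input sample was therefore not looked at, and "bound" means only that a peak of the list lay at the gene.

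Ribosomal protein genes are transcribed together at high rates in growing larvae, and losing a single copy of many of them gives the Minute phenotype of slow development and short bristles. In Drosophila most of them start transcription within a run of pyrimidines, the TCT or polypyrimidine initiator, in place of the common initiator, and they use the TBP-related factor Trf2 in place of TBP. Other factors known at their promoters are Dref, which binds the DNA replication-related element, and M1BP, which binds the core promoter element called motif 1. Pipsqueak is a BTB-domain protein that binds GAGA-type sequences and is known from Polycomb-group and Trithorax-group regulation of developmental genes.

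Promoter sequences are shown to let the starts of bound and unbound members be compared. They come from the RefSeq copy of release 6 of the genome (dm6), read 5′ to 3′ on the strand of the gene, from 90 bases before the start site used by most transcripts to 25 bases from that start onwards. Capitals mark GAGAG, TATCGATA or GGTCACACT on either strand, as well as CTTT on the strand of the gene close to the start. The 6 bound members are RpS27 (chr3R:25247490-25247604, minus strand), RpL7 (chr2L:10200914-10201028, plus strand), RpL14 (chr3L:8600916-8601030, plus strand), RpL23A (chr3L:1668630-1668744, minus strand), RpL27 (chr3R:25685027-25685141, minus strand) and RpL4 (chr3R:27922731-27922845, plus strand). RpS27, RpL7, RpL14 and RpL23A had the strongest peaks whose summit lay within 100 bp of the start, and RpL27 and RpL4 carry motifs that these do not. The CTTT and the CTCTC of RpL4, which is GAGAG on the other strand, overlap.
RpS27: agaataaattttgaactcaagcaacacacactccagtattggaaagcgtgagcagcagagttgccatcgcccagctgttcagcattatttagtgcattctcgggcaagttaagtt
RpL7: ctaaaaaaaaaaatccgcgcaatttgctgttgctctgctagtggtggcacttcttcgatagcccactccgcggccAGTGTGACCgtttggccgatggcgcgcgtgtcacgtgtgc
RpL14: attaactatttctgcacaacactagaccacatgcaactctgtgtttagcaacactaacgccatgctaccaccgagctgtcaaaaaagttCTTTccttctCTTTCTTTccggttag
RpL23A: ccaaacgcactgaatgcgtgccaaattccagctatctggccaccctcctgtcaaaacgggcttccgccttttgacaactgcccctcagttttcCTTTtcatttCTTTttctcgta
RpL27: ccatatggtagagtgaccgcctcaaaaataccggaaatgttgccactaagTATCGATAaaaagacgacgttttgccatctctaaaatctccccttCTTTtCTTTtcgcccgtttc
RpL4: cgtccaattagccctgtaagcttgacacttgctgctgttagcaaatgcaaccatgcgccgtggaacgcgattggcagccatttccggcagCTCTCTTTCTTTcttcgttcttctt

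The 4 unbound members are RpS3 (chr3R:23358722-23358836, plus strand), RpS15Aa (chrX:13337614-13337728, minus strand), RpL15 (chr3L:27267165-27267279, plus strand) and RpL10Aa (chr3R:15037276-15037390, plus strand). RpS3 and RpS15Aa carry the same kind of pyrimidine run at the start as RpL14, RpL23A, RpL27 and RpL4, while RpS27 and RpL7 lack it. RpL15 lies in pericentromeric heterochromatin, and RpL10Aa is a retained copy of RpL10Ab with no entry in any list. These promoters, and RpL27 and RpL4 above, were picked by hand after their values were seen.
RpS3: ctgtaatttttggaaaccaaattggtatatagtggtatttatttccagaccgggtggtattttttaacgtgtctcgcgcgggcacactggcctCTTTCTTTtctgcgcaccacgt
RpS15Aa: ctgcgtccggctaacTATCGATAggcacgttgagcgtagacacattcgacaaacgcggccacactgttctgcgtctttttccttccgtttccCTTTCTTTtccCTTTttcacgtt
RpL15: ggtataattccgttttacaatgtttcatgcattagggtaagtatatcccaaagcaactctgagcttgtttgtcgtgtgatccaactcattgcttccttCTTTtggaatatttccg
RpL10Aa: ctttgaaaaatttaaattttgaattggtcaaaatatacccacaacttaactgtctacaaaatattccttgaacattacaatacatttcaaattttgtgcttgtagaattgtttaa

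Most ribosomal protein genes were bound, and the binding sat on their start sites. A gene counted as bound when the summit of an optimal peak lay in its span or in the 1 kb on either side. By that measure 69 of the 92 members (75.0%) were bound, against 37.4% of all protein-coding genes, although member spans were short, with a median of 1315 bp against 2164.5 bp. Within 500 bp of an own start site, a window that does not grow with the gene, a summit lay at 64 members (69.6%), against 27.4% of all genes. Within 100 bp of an own start a summit lay at 52 members (56.5%), against 11.0% of all genes. A summit between neighbouring genes counted for each of them in these shares.

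The replicates placed peaks at the members about as often as the optimal list did. For this, each replicate list was reduced to its 9459 strongest entries, called its top list. The top lists held a summit in the span or 1 kb around it for 76.1%, 71.7% and 76.1% of the members in replicates 1, 2 and 3, against 39.6%, 35.2% and 36.8% of all genes. Within 100 bp of an own start they held a summit for 42, 44 and 51 members (45.7%, 47.8% and 55.4%), against 11.8%, 9.89% and 11.3% of all genes. The mean of the members was thus 49.6% ± 5.10 (SD, n = 3) and that of all genes 11.0% ± 0.990 (SD, n = 3), so the lowest replicate of the members lay above the highest of all genes. In every one of the 3 replicates the same 32 members (34.8%) had a top-list summit within 100 bp, as did 789 of all genes (5.65%).

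The nearest summits lay closer to the start than at other genes. Among the 64 members with a summit within 500 bp of a start, the median position was 53 bp upstream (quartiles −76.25 and −10.25 bp, where negative is upstream), and over all 3828 genes with such a summit it was 102 bp upstream (quartiles −183 and −10.75 bp). In the top lists the members' median was −67, −45 and −34.5 bp, a mean of −48.8 ± 16.6 bp (SD, n = 3), and that of all genes was −104, −101 and −94 bp, so the ranges did not overlap. The stretch from the start to 100 bp upstream held 38 of the 64 summits (59.4%), against 26.5% over all genes. Upstream of the start lay 78.1% of these summits at members and 77.0% at all genes. Positions are limited by the peak caller, since in 58.1% of the optimal entries the summit is the midpoint of the entry and the median entry was 520 bp wide.

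**Figure D1:**
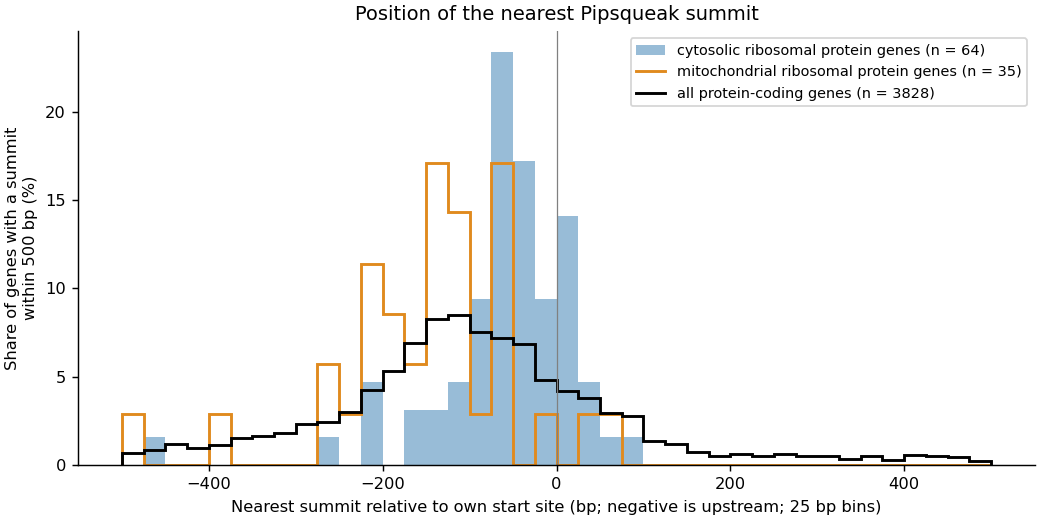
Position of the nearest optimal summit relative to the nearest own start site in 25 bp bins, as a share of the genes with a summit within 500 bp. The filled bars of the 64 cytosolic ribosomal protein genes peak between the start and 100 bp upstream, while the curves of mitochondrial ribosomal protein genes and of all genes have their medians at 135 and 102 bp upstream.

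The position of a member varied little between replicates, as it did at other genes. For 56 members each top list had a summit within 500 bp of an own start, and the SD of that position over the 3 replicates had a median of 22.2 bp, against 27.7 bp for the 3013 genes of the genome with the same support. It was under 50 bp at 42 of the 56 members, a share that was not computed over all genes. RpL32, a large-subunit gene long used as a reference in expression assays, had its summit 132, 131 and 131 bp upstream in replicates 1 to 3. RpL24 had it 17, 13 and 13 bp upstream. RpS6, whose product is phosphorylated by S6 kinase, was among the least stable, with top-list summits 41, 424 and 198 bp upstream. The genes named for a known role, here and below, were chosen after their values were seen.

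Most nearest summits lay closer to the member's start than to a neighbour's. These summits were picked as the nearest to an own start, which favours that start, and the same share over all genes was not computed. Of the 64 summits within 500 bp of a member's start, 61 were closer to that start than to the start of any other protein-coding gene, and 30 had no other start within 500 bp. Among the others, the neighbour's start was closer at RpL13 and RpLP0-like. The summit at RpL13 lay 70 bp upstream of it and 14 bp from the start of Dref, the gene of the replication-related element factor, so the RpL13 peak and the Dref peak are a single peak with a signal of 437. Members with another gene starting on the opposite strand within 1 kb upstream were bound in 46 of 55 cases (83.6%) and those without in 23 of 37 (62.2%). The same shares were not computed over all genes, and a summit between neighbours counts for each of them. A summit within 100 bp of the own start was found at 20 of the 37 members without a divergent neighbour and at 32 of the 55 with one. By that measure the shares were closer.

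Large-subunit genes had a summit somewhat more often than small-subunit genes in every replicate. In the optimal list a summit in the span or 1 kb around it was found at 42 of 54 large-subunit genes (77.8%) and at 27 of 38 small-subunit genes (71.1%). In the top lists the large subunit was higher by 8.58, 1.17 and 4.09 percentage points in replicates 1 to 3, a mean of 4.61 ± 3.73 (SD, n = 3), little more than the spread between replicates. Within 500 bp of a start it was higher by 12.8, 15.1 and 15.4 points, a mean of 14.4 ± 1.44 (SD, n = 3). Within 100 bp the optimal list had 33 of 54 (61.1%) and 19 of 38, and the top lists differed by 10.5, 5.26 and 9.26 points, a mean of 8.35 ± 2.75 (SD, n = 3). The replicates cover the same genes, so these SDs do not include the spread between genes. The median signal of the strongest peak was 409 at bound large-subunit genes and 406 at bound small-subunit genes. No test was made between the subunits.

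Mitochondrial ribosomal protein genes, which serve a separate ribosome, had their summits further upstream. A summit lay in the span or 1 kb around it at 41 of these 73 genes (56.2%), and within 100 bp of a start at 10 (13.7%, or 12.8% ± 2.10 over replicates, SD, n = 3). Their median position was 135 bp upstream, and −137 ± 14.7 bp over the replicates (SD, n = 3), whose range of −154 to −127 bp lay outside that of the cytosolic members. Proteasome subunit genes, another large set of widely expressed genes, were bound in 15 of 48 cases (31.2%) and within 100 bp in 4 (8.33%). Every replicate of the cytosolic members lay above every replicate of both sets in the share within 100 bp.

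**Figure D2:**
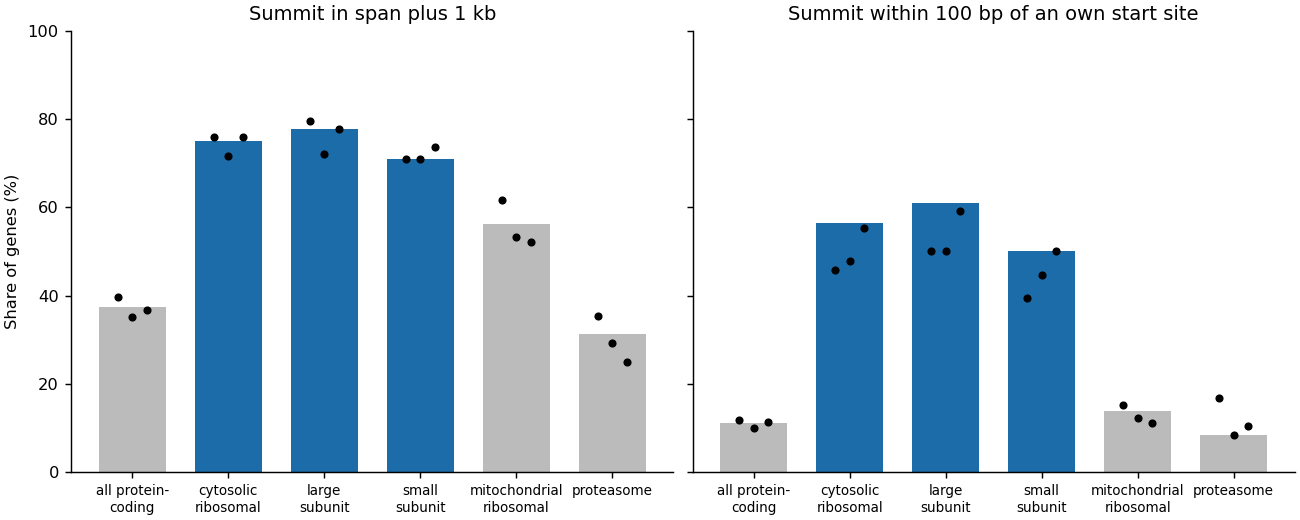
Share of genes in percent with a summit in the span plus 1 kb (left) and within 100 bp of an own start site (right). Bars give the optimal list and the 3 black points the replicate top lists, and the points of the cytosolic ribosomal protein genes (45.7% to 55.4% on the right) lie above those of the mitochondrial ribosomal protein and proteasome genes.

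The peaks themselves were of middling strength. The signal value that the authors gave each peak, on a scale the files leave unnamed, ranged from 192 to 1780 over the strongest peaks of the 69 bound members, with a median of 407, against 462 over all 5222 bound genes. In the stronger 50% of the optimal list were 44 members (63.8% of those bound, against 62.3% of all bound genes). Only RpL31 had a peak in the strongest 10% of the list (1.45% of the bound members, against 17.2% of all bound genes). A single summit was found at 48 bound members (69.6%, against 55.6% of all bound genes), and the members had 93 distinct summits between them.

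**Figure D3:**
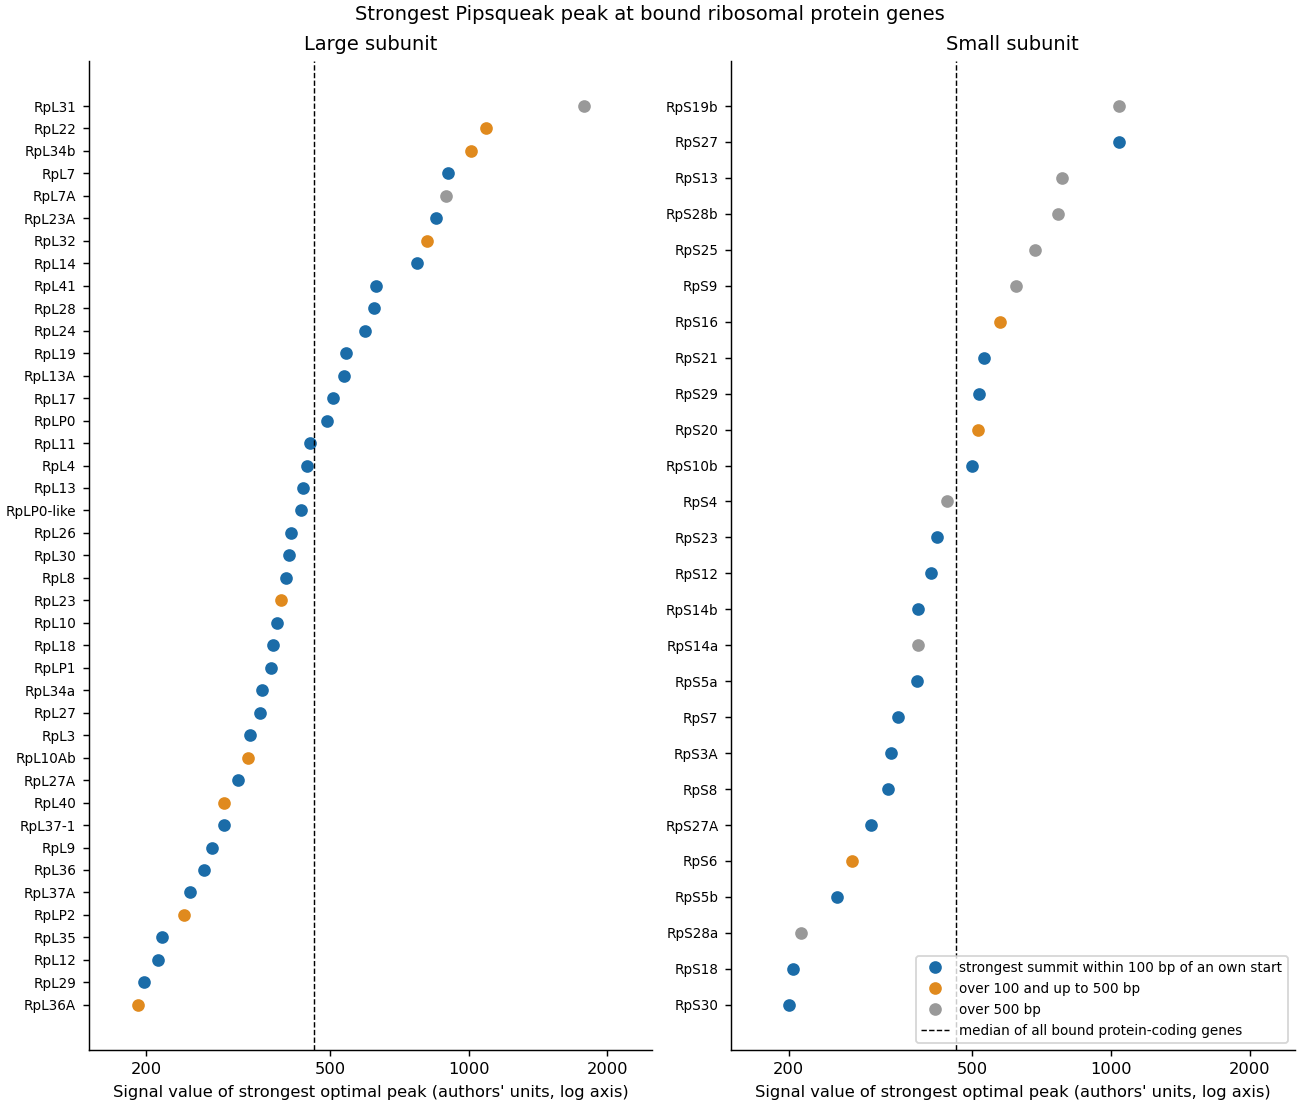
Signal value of the strongest optimal peak at the bound members on a log axis, less a few that are not reported by name, for the large (left) and small subunit (right), coloured by the distance of its summit from the nearest own start. The dashed line is the median of all bound genes (462), and several of the highest points, such as RpL31, RpL7A, RpS19b and RpS13, are grey because that summit lay over 500 bp from the start.

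Among the 12 members with the strongest peaks, those of RpS27, RpL7, RpL23A, RpL14, RpL34b and RpL32 sat at the promoter. RpS27, a zinc-finger protein of the small subunit, had a signal of 1039 at a summit 3 bp downstream of a start (chr3R:25247369-25247676), and the strongest entry in the gene's window ranked 496, 1791 and 1282 in replicates 1 to 3. RpL7 had 901 at a summit 18 bp downstream (chr2L:10200885-10201156), with ranks 820, 2183 and 1344 and with top-list summits 10, 10 and 18 bp downstream. RpL23A, which lies at the tunnel exit of the ribosome, had 851 at 71 bp upstream (chr3L:1668597-1668866), with ranks 1085, 2105 and 1423. Each of these peaks was in every top list. RpL14, a Minute gene, had 774 at 40 bp upstream (chr3L:8600821-8601087) and ranks of 1009, 2794 and 1685. RpL34b had 1014 at 103 bp upstream and ranks of 428, 1774 and 1772, and RpL32 had 812 at 131 bp upstream and ranks of 965, 2469 and 1587. In these 6 genes replicate 1 gave the best rank and replicate 2 the worst.

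The other 6 of the strongest peaks lay away from the start. RpL31 had the strongest, 1780 (ranks 234, 443 and 488), but that summit lay past its 3′ end, 1675 bp from its start and 140 bp from the start of CG1827, and its nearest summit was another, 71 bp upstream. RpL22 had 1091 at 452 bp upstream (ranks 1818, 818 and 1117), and the nearest start of another gene, fz3, was 4363 bp from it. RpS19b had 1039 at 899 bp upstream, 517 bp from the start of CG5854, and RpL7A had 894 at 868 bp upstream, 217 bp from the start of dx. These 2 genes had no optimal summit closer to their own start. RpS13, a Minute gene, had 781 past its 3′ end, 175 bp from the start of CG7627, and RpS28b had 768 at the start of l(1)G0320, 822 bp upstream, beside a weaker summit 61 bp upstream of its own start. In all, 59 of the 69 bound members had their strongest summit within 500 bp of an own start.

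Counting by distance, 5 bound members had no summit within 500 bp of a start. Besides RpS19b, RpL7A and RpS13 these were RpS9 and RpS28a. RpS9 had its nearest optimal summit 2186 bp downstream of its start and past its 3′ end. RpS28a had its summit 611 bp downstream, past its 3′ end and 184 bp from the start of Mgat2. RpS13 nevertheless had a top-list summit 72 bp upstream in replicate 1, and entries of the full lists 177 and 47 bp upstream in replicates 2 and 3. RpS9 had top-list summits 184 bp upstream in replicate 1 and 41 bp downstream in replicate 3. The full lists had entries at RpL7A 4 bp upstream in replicate 1 and 13 bp downstream in replicate 2, and at RpS19b 24 bp upstream in replicate 1. At RpS28a they had entries 101 and 155 bp upstream in replicates 1 and 3 and, in the pooled list, 179 bp upstream. RpS19b is the member just inside the limit of 1 kb, and RpL22-like, with its nearest summit 1095 bp upstream, is just outside it.

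Several summits were found at a few members. RpS25 had 4 and RpS4 and RpS23 had 3 each, while every other bound member had 1 or 2. The strongest of the RpS25 summits (684) lay past its 3′ end, 132 bp from the start of ZnT86D, and the nearest lay 46 bp upstream of its own start. RpS4 likewise had its strongest summit (440) past its 3′ end, 75 bp from the start of Syx13, and its nearest 21 bp upstream. RpS23, which lines the decoding centre of the small subunit, had its strongest (419) 21 bp downstream of a start.

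By role, the genes of the ribosome's stalk, which recruits the elongation factors, were all bound: RpLP0 with a signal of 494 at 50 bp upstream, RpLP1 with 372 at 32 bp upstream and RpLP2 with 242 at 274 bp upstream. The ubiquitin fusion genes were bound as well, RpL40 with 295 at 227 bp upstream and RpS27A with 302 at 55 bp upstream. RpL40 also had a weaker summit 27 bp upstream. These groups hold few genes, and 75.0% of all 92 members were bound. RpL11, which joins the 5S RNA particle with RpL5, had 454 at 55 bp upstream, while RpL5 was unbound. Of some genes whose proteins lie around the tunnel exit, RpL39 was unbound, and beside RpL23A, RpL17 had 507 at 31 bp upstream, RpL19 had 541 at 25 bp upstream, RpL26 had 412 at 82 bp downstream and RpL35 had 216 at 27 bp upstream. Around the entry of the messenger RNA into the small subunit, RpS3 and RpS2 were unbound and RpS30 was bound weakly. RpS12, which is known for sensing ribosomal protein gene dose in cell competition, had 406 at 76 bp upstream.

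Paralogs often differed. RpL22 and RpLP0 were bound within 500 bp of the start, RpL22-like was unbound, and RpLP0-like, most like yeast Mrt4 of ribosome assembly, had 434 at 95 bp upstream but only 8 bp from the start of 14-3-3zeta. RpL7 and RpL24 (597 at 13 bp upstream) were bound, and RpL7-like and RpL24-like, most like assembly factors of the yeast large subunit, were not. RpL10Ab (332), RpL37-1 (295) and RpS10b (499, 48 bp upstream) were bound, and RpL10Aa, RpL37-2 and RpS10a were the members with no entry in the window of any list. Of the RpS19 copies, RpS19b was bound 899 bp upstream and RpS19a was unbound. In the pairs RpL34a (357) and RpL34b (1014), RpS5a (380) and RpS5b (255), and RpS28a (213) and RpS28b (768) both copies were bound. The RpS28a and RpS28b peaks with these signals lay 184 and 51 bp from the starts of Mgat2 and l(1)G0320. Both copies of RpS15A were unbound, as was RpS28-like. RpS14a and RpS14b lie side by side and shared a summit with a signal of 381, 38 bp upstream of RpS14b, and RpS14a had another 170 bp upstream. They are near-identical copies, so reads could be assigned to either and their values are uncertain.

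Support by the replicates was high. The strongest peak was overlapped by at least 1 bp by an entry of all 3 top lists at 62 of the 69 bound members (89.9%), against 82.4% of all bound genes. The count was 51 with a reciprocal overlap of 50%, and 57 with summits at most 100 bp apart. These 2 counts were not computed over all genes. By the rule of 1 bp, RpS5b, RpL35 and RpS18 had the strongest peak in 2 top lists, RpL12, RpL29 and RpL36A in 1, and RpS30 in 0. Apart from RpS5b, ranked 7048, these were among the weakest. RpL12 (212), RpS18 (204), RpS30 (200), RpL29 (198) and RpL36A (192) were among the weakest bound members by signal. RpS30, whose product is made as a fusion with a ubiquitin-like protein, ranked 9001 in the optimal list and 10607, 10880 and 19137 in the replicates, past the end of the top lists each time, with summits 6 bp upstream, 3 bp downstream and 91 bp upstream of a start.

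**Figure D4:**
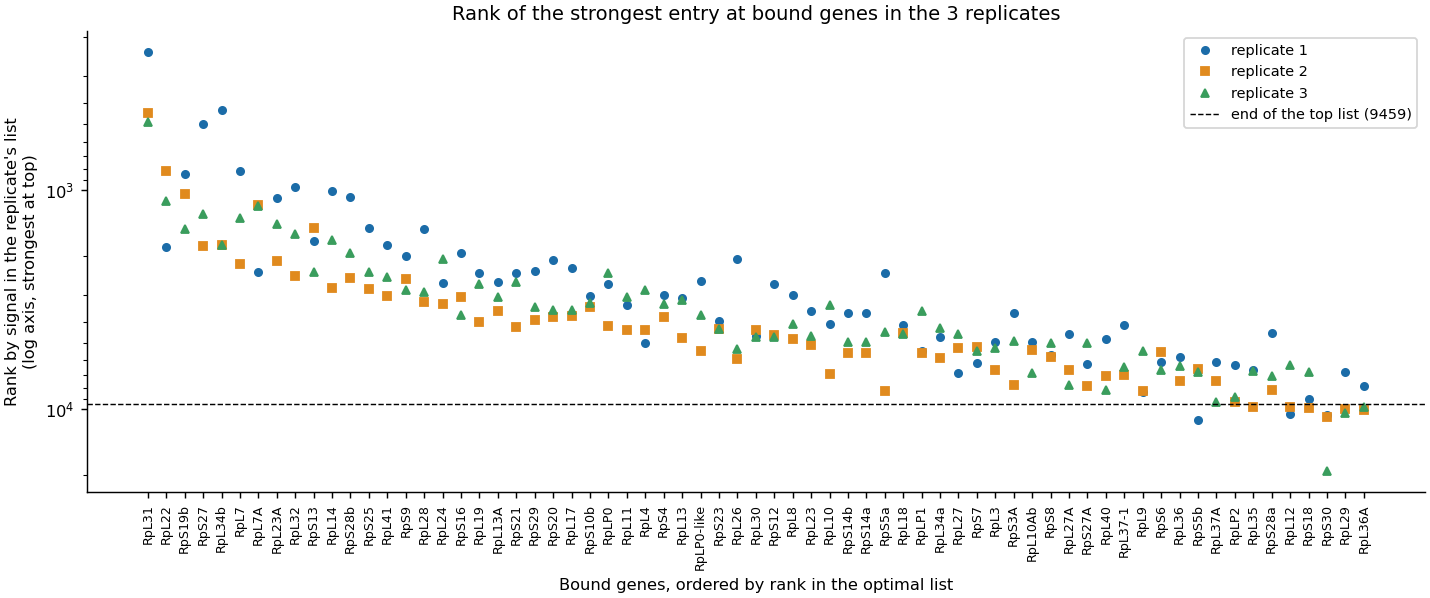
Rank by signal of the strongest entry in the span plus 1 kb of the same bound members in the lists of replicates 1, 2 and 3, on a log axis with the strongest at the top. Genes run from the highest optimal signal (RpL31, ranks 234, 443 and 488) to the lowest (RpL36A), and points beneath the dashed line at 9459 are outside the top list of that replicate.

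The 23 unbound members included RpL5, RpL6, RpL7-like, RpL10Aa, RpL15, RpL21, RpL22-like, RpL24-like, RpL35A, RpL37-2, RpL38 and RpL39 of the large subunit and RpS2, RpS3, RpS10a, RpS15, RpS15Aa, RpS15Ab, RpS19a, RpS24, RpS26 and RpS28-like of the small subunit. Many of them had an entry at the start that fell beneath the optimal list. In the pooled list, whose strongest 9459 entries are the optimal list, 14 of the 23 had a summit within 500 bp of a start, against 25.7% of all 8746 unbound genes, and 11 had it within 100 bp, against 13.3%. By the strongest pooled entry in the span plus 1 kb, RpS15Aa was the nearest to the limit with rank 9691, followed by RpL35A (10755), RpL7-like (10969), RpS26 (11182) and RpS19a (11194). Their nearest pooled summits lay 33, 53, 170, 59 and 47 bp upstream of a start. With the pooled list in place of the optimal one, 80 of the 92 members had a summit within 500 bp, against 48.9% of all genes.

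Some unbound members were in the top list of a replicate. Among these, replicate 1 had RpL15, RpL39 and RpS15Aa, replicate 2 had RpL6, RpS19a and RpS2, and replicate 3 had RpL35A, RpS19a and RpL7-like. RpS19a ranked 10333, 9413 and 6985 in replicates 1 to 3. RpS3, a Minute gene in wide use, was further down, with ranks of 12859, 17880 and 11151 and with its nearest optimal summit 1646 bp upstream. RpS2 and RpS24 ranked 12256 and 13109 in the pooled list, with their nearest summits 29 and 45 bp upstream.

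RpL5, RpL15 and RpL38 lie in pericentromeric heterochromatin, and RpL21 lies close to it on 2L (22247111 to 22247875). The pooled list had no entry at any of the 4, and their nearest optimal summits were 402469, 1254561, 1210522 and 113652 bp away. Replicate 1 alone had entries at the start of all 4. The nearest were 32 bp upstream of RpL5 (best rank in the window 12341), 33 bp downstream of RpL15 (8420), 31 bp upstream of RpL38 (13515) and 6 bp upstream of RpL21 (12639). Replicate 3 had an entry at RpL38, 56 bp upstream (14924), and replicate 2 had none at these genes. RpL10Aa, RpS10a and RpL37-2 had no entry in any of the lists, and RpS15Ab and RpS28-like had weak entries in replicates 2 and 3 and none in replicate 1 (best ranks 20525 and 23523).

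A smaller share of members' promoters than of all promoters held GAGA sequences. The window from 250 bases before to 50 bases after the main start held GAGAG on either strand in 16 of 92 members (17.4%), against 30.2% of all promoters and 32.7% of those with a summit within 500 bp. GAGAGAG was in 0 of the members' windows and in 6.15% of all. Within 50 bp of the nearest summit, GAGAG was in 4 of 64 member windows (6.25%) and in 13.2% of the 3828 of all genes, whose mean GC content was 36.5% against 44.0% at the members. Among the members, the promoter held GAGAG in 15 of 69 bound (21.7%) and 1 of 23 unbound genes (4.35%), and in 13 of the 52 with a summit within 100 bp of a start. The median signal of bound members with GAGAG in the promoter was 434 (15 genes) and without it 406 (54 genes). The same letters in other orders, GGAAG and then AGGGA, were in 40.2% and 26.1% of the members' promoters and in 27.7% and 24.1% of all. They too were more frequent in bound than in unbound members. GGAAG was in 32 of 69 bound (46.4%) and 5 of 23 unbound genes (21.7%). AGGGA was in 22 of 69 (31.9%) and 2 of 23 (8.7%), so the difference was not particular to GAGAG.

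Other promoter sequences were more common at the members. The palindrome TATCGATA, the replication-related element, was in 28 members (30.4%), against 9.23% of all promoters and 14.3% of those with a summit within 500 bp. Its 32 matches had a median position 60 bases upstream, and it was within 50 bp of the nearest summit at 13 of 64 members (20.3%), against 3.63% of all. It was as frequent in bound members (21 of 69) as in unbound ones (7 of 23), and the median signal was 406 with it and 413 without. GGTCACACT, a version of motif 1, was in 9 members (9.78%), against 6.06% of all, and within 50 bp of the summit at 5 (7.81%), against 1.33% of all. CACGTG, the E-box of Myc and Max, was in 10 members (10.9%), all of the large subunit, against 4.2% of all promoters, and TATAAA was in 45.7% of members and 45.5% of all. A match describes letters in the window and does not show that a factor binds there.

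The pyrimidine run at the start was the most common of these sequences. CTTT on the strand of the gene, from 5 bases before the main start to 20 bases from it onwards, was in 66 members (71.7%) and in 11.4% of all promoters. Bound members had it in 49 of 69 cases (71.0%) and unbound members in 17 of 23 (73.9%). In the sequences printed above it is present in RpL14, RpL23A, RpL27 and RpL4 and in RpS3, RpS15Aa and RpL15, and absent from RpS27, RpL7 and RpL10Aa.

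**Figure D5:**
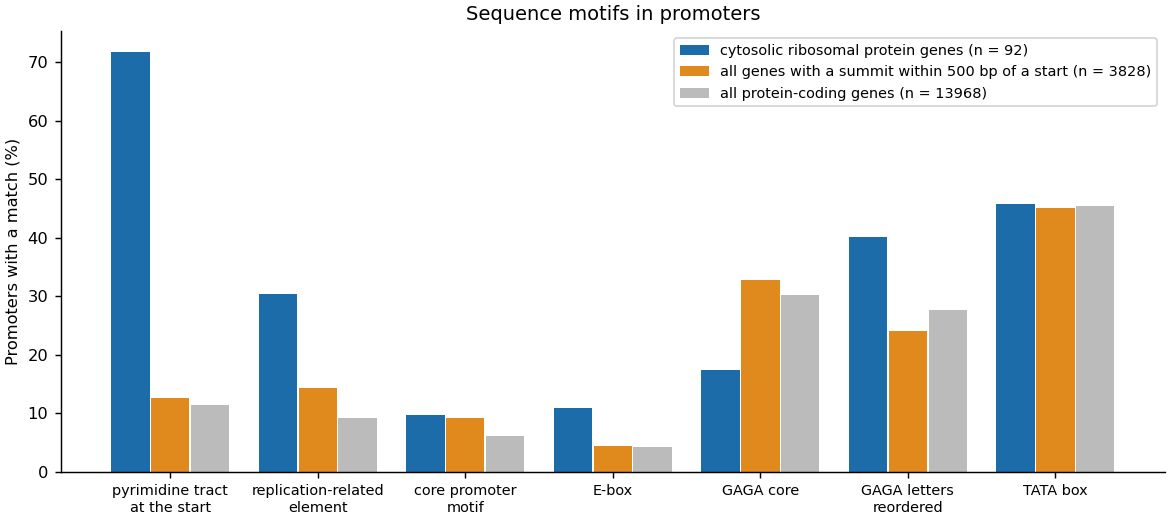
Share of promoters in percent with at least 1 match to each motif, for the 92 members, for the 3828 genes with a summit within 500 bp of a start and for all 13968 protein-coding genes. From left to right the motifs are CTTT at the start, then TATCGATA, then GGTCACACT, the E-box, GAGAG, then GGAAG and last TATAAA, and the members stand above all genes at the pyrimidine tract (71.7% against 11.4%) and beneath them at GAGAG (17.4% against 30.2%).

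Members that host small nucleolar RNAs, which guide the modification of ribosomal RNA from within introns, were bound in 25 of 28 cases (89.3%), and the other members in 44 of 64 (68.8%). These other members include unbound paralogs such as RpL10Aa, RpS10a, RpL37-2, RpL7-like and RpL24-like, and bound ones such as RpLP0-like. A summit lay within 100 bp of a start at 17 of the 28 hosts and at 35 of the 64 other members, so the shares were closer by that measure. The share of all host genes that were bound was not computed. RpS5a hosts the most, 14, and had a signal of 380 at 69 bp upstream. By arm, 13 of 19 members were bound on 2L, 13 of 21 on 2R, 13 of 14 on 3L, 17 of 23 on 3R and 12 of 14 on X. The shares of all genes bound there were 34.6%, 37.1%, 38.8%, 37.0% and 40.9%. RpS3A, the only member on chromosome 4, had 333 at 80 bp upstream, where 16 of 80 genes were bound.

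Related genes were counted from lists put together with earlier results known, beside 37.4% of all genes bound and 11.0% within 100 bp of a start. One list held 11 genes for ribosomal proteins outside the symbol rule, ribosome-associated factors and translation elongation. Of these, 9 were bound (81.8%) and 6 had a summit within 100 bp of a start (54.5%). The strongest were eEF1alpha1 (1930), eEF1gamma (725) and bic (484), whose nearest summits were 106, 65 and 559 bp upstream. Of 28 ribosome assembly factors, 16 were bound (57.1%) and 3 within 100 bp (10.7%, close to the share of all genes), led by eIF6 (2250), Ns2 (1480) and pes (828). Of 9 genes of RNA polymerase I, which makes the ribosomal RNA precursor, 3 were bound (33.3%, close to the share of all genes), Polr1D (570), TAF1B (251) and Polr1F (220). Of 20 genes for factors tied to transcription of ribosomal protein genes or to GAGA sequences, 17 were bound (85.0%) and 7 within 100 bp (35.0%), led by psq itself, larp (4500) and REPTOR (3320).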

How the data were processed

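ChIP-seq of Pipsqueak-eGFP from whole larvae came from 3 biological replicates that the labels place in 1 group. The authors deposited peak lists on dm6. Text files deposited beside them name the pooled and replicate lists as peaks and background, the input of the irreproducible discovery rate step, and the optimal list as what passed it. Aligner, peak caller and thresholds: not given in the sources used here. In the deposited lists an entry has a signal value on an unnamed scale, a −log10 q-value, which was not used, and a summit offset in bp. Signal was used only to rank or describe entries within a list. Depth is unknown, so no counting intervals were given.

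Summits were compared with Ensembl release 115 gene models (FlyBase 6.54) with every annotated start, and sequences were read from the RefSeq copy of the same assembly, in Python 3.11.15 with numpy 2.4.6, pandas 2.3.3 and matplotlib 3.10.9. Peaks were shared with a replicate when they overlapped by at least 1 bp. The placement of summits was tested on simulated data. The members and lists were chosen with earlier results of these data known. With 1 group no test was made, and errors are SDs over 3 replicate top lists.

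Genes named by rule were all unbound members, the 12 strongest, the 6 weakest and the 6 farthest from a start among bound members, the paralogs, those with the most summits, those missing from a top list and those next to the 1 kb limit. Counts were recomputed with other windows, a stricter peak set, merged entries, other overlap rules, RefSeq starts and without each replicate. A few members enter the counts but are not reported here by name.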

Additional observations from a re-analysis of the deposited data

How the results depend on the processing

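Of 68 recomputed values under 16 settings, 54 moved by less than 1.5 times (counts) or by less than 1 SD between replicates (medians). All 68 were computed for the members only, so how the shares of all genes change under these settings is not known. Counting summits in the gene span only, without the 1 kb around it, left 19 members bound (11 large, 8 small), 15 of them with their strongest peak in all 3 top lists, a median signal of 346 and a median distance of 20 bp. The drop follows from the setting, since it leaves out summits upstream of the start. With only the stronger 50% of the optimal peaks, 44 members were bound (27 large, 17 small), 37 within 500 bp and 30 within 100 bp of a start, with a median signal of 524. With top lists of 50% of the size, 32 members had their strongest peak in all 3. Within 50 bp of a start there were 29 members. Keeping only optimal peaks that were also in the top lists of 2 replicates, leaving out each replicate in turn, the bound count ranged from 62 to 64 and the count within 100 bp from 45 to 47. The 100 bp window and its alternatives were chosen after the data were seen. No paired analysis was possible because the labels give a single group, with no other condition to pair with it. Without read counts, a missing peak at a member cannot be told from a weak one.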
